A study of Mus musculus with 12 samples.

Results

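Axon guidance ligands and their receptors were followed in the embryonic mouse cortex, across its rostral and caudal parts and with or without the transcription factor AP2γ, encoded by Tfap2c. The set held 51 genes in 4 families, chosen by name as classical guidance molecules, with earlier results of these data known. The Eph receptors and ephrins had 17 genes, the semaphorins with their plexin and neuropilin receptors 21, the Slit ligands and Robo receptors 5, and netrin with its receptors and the Flrt proteins 8. Probe sets naming 1 of these genes alone were found for 50 of them, 125 probe sets in all. Ephb2 had none and was not analysed here. A gene was tested where a probe set rose above 5.21 (log2), the median of all deposited values, on 3 or more of the 12 arrays. This kept 47 of the 51 genes, among 11785 tested genes in the series. Epha6, Epha8 and Slit3 lay below that value on all 12 arrays, with medians of 4.14, 2.52 and 1.67, and their differences were not tested.

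Guidance molecules steer growing axons and migrating neurons by contact or by diffusion. Netrin draws axons through Dcc and repels them when Unc5 receptors take part. Slit proteins repel through Robo receptors, semaphorins act through plexins and neuropilins, and ephrins bound to one cell signal to Eph receptors on the next. In the developing forebrain, ephrins and Eph receptors are laid out in gradients that help to map thalamic axons onto cortical areas, and netrin and Slit guide thalamic and cortical axons where they cross the ventral telencephalon. Flrt proteins are membrane proteins that bind Unc5 receptors and latrophilins and bear on the migration and adhesion of cortical neurons.

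Cortex was taken at embryonic day 14 from Tfap2c knockout mice (KO) and from wild-type mice (WT), in a caudal and a rostral piece. The 4 groups held 3 arrays each, every array with an animal number of its own and described as a biological replicate. In the order used for all values given here, the caudal WT arrays are those of animals 4, 6 and 14, the caudal KO arrays those of 1, 2 and 13, the rostral WT arrays those of 10, 12 and 16, and the rostral KO arrays those of 7, 8 and 15. How the knockout was made, the strain and the sex are not given in the sources used here. All values are log2 signals that the authors had normalised, so a difference of 1 is a 2-fold change, and a difference is given as caudal minus rostral or as KO minus WT. Levels of different genes are not compared, because probe sets differ in their binding.

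AP2 proteins bind a short palindrome, GCCNNNGGC, which reads the same on both strands. Promoters of 42 of the 51 genes were found in the RefSeq table for GRCm38.p6, and the 250 bases before the start of each gene were searched. The palindrome was present in 12 of the 42 (28.6%), beside 4163 of 27025 genes in that table (15.4%). The guidance promoters were also richer in G and C, with a median of 65.2% over 52 promoters beside 52.4% over 32851, and the part of base composition in the higher share was not tested. A match describes the letters only and is not evidence of binding. The stretches shown have the palindrome in capitals. They belong to the 3 genes with a regional difference that had a match, and to Sema3c and Slit2. Sema3c and Slit2 had the most negative KO differences averaged over regions among the 47 genes, by the probe set that stood for the gene. A second tested probe set of Slit2 did not show this, as given below. All stretches are on the plus strand, written 5′ to 3′.
Flrt2, chr12:95691976-95692031: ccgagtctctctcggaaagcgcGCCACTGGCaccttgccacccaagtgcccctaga
Sema7a, chr9:57939973-57940031: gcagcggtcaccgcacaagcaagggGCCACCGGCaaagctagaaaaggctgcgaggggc
Sema7a, chr9:57940065-57940111: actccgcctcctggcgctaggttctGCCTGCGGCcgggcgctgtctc
Unc5a, chr13:54949232-54949290: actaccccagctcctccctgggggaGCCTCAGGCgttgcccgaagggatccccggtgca
Sema3c, chr5:17574695-17574753: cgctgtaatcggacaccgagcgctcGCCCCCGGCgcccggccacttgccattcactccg
Slit2, chr5:47983076-47983134: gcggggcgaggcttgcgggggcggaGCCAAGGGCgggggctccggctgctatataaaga

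The 12 arrays were alike in their overall distribution, with medians of 5.21 to 5.22. Tfap2c was lower in KO than in WT by 1.22 in caudal and by 0.59 in rostral cortex on the log2 scale; averaged over regions it fell by 0.91 (limma adjusted p = 0.038), but rostral KO animal 8, at 8.63, lay above rostral WT animal 16, at 8.54. Whether its probe set lies inside the deleted part is not given in the sources used here. Nr2f1 and Nr2f2, known caudal genes, were higher caudally by 2.03 and 2.34. Sp8, Etv5 and Pax6, known to be higher rostrally, had differences of -1.84, -1.24 and -0.42, all past the test, and Emx2, known to be higher caudally, had a difference of -0.06 and did not pass. Xist, the female-specific transcript, was high in WT animals 6 and 12, at 11.32 and 11.89, and at most 5.48 on the other 10 arrays. Markers listed for neighbouring tissues also differed between the regions, and the cells that gave their signal were not identified. The mean level of 9 tested markers of the ganglionic eminence and its interneurons ran from 5.49 to 6.53 on caudal and from 6.78 to 8.28 on rostral arrays. Of these 9, Dlx1, Dlx2, Dlx5 and Isl1 were lower caudally past the test, and Isl1 lay below 5.21 on all 6 caudal arrays. Gsx2, Dlx6, Gad1 and Gad2 were also lower in value without passing, and Lhx6, a marker of migrating interneurons, was at 0.48 in the other direction (limma adjusted p = 0.054). The mean of 5 tested diencephalic markers ran from 5.70 to 7.36 caudally and from 8.28 to 9.05 rostrally, with Zic1, Zic4 and Foxp2 lower caudally past the test, at -2.91, -4.07 and -1.27. Zic4 exceeded 5.21 on only 1 of 3 arrays in each caudal group, so its caudal level was not well measured. Tcf7l2, at -0.55, and Lhx9, at 0.28 in the other direction, did not pass. Meningeal markers averaged 7.86 on the array of rostral KO animal 15 and 4.82 to 5.93 on the other 11. The mean of 7 cortical markers ran from 10.10 to 10.57 and that of 4 neuronal markers from 11.67 to 12.02 over all 12 arrays. Mean levels of the markers of Cajal-Retzius cells (6.45 to 7.61), of vascular cells (6.11 to 6.96) and of the cortical hem and choroid plexus (3.52 to 7.04) overlapped between the regions. Of the 5 Cajal-Retzius markers, 2 were lower caudally. Calb2, at -1.54 (limma adjusted p = 9.7e-05), was the only 1 of the 5 past the test. No vascular, hem or choroid plexus marker passed between the regions. In such bulk pieces, fewer cells of a type and less RNA per cell cannot be told apart.

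**Figure D1:**
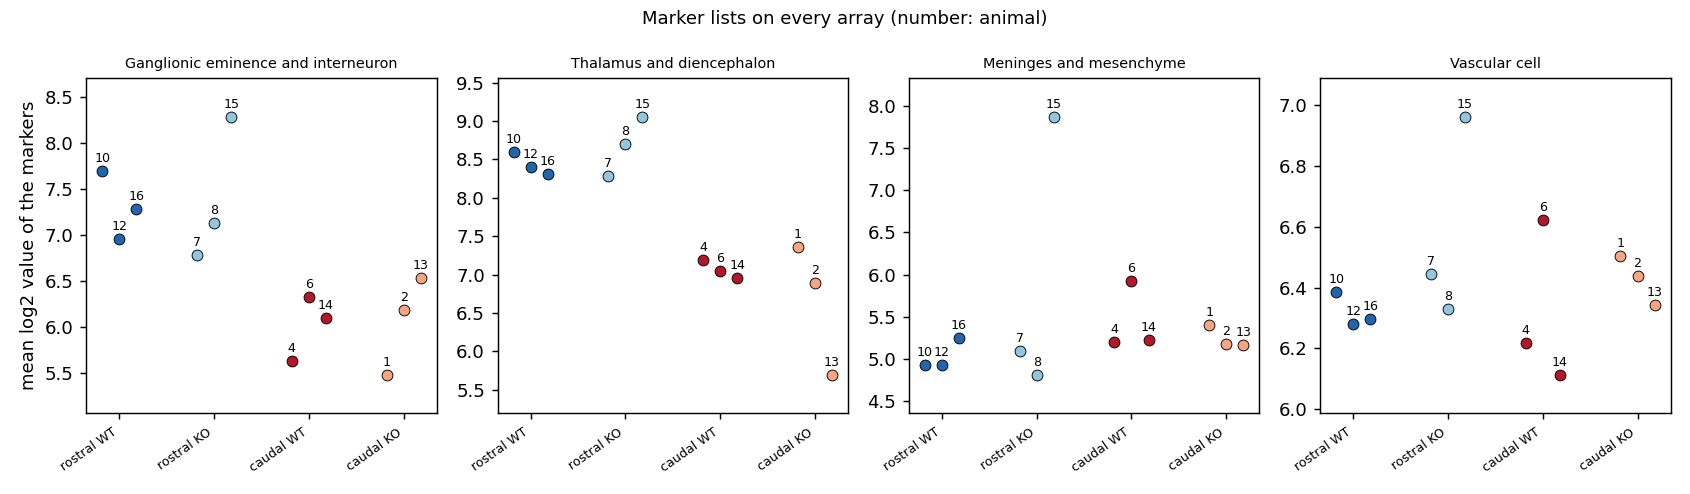
Mean log2 level of the tested markers of 4 tissues or cell types (1 panel each) on each of the 12 arrays, by group, with the animal number at each point. The means of the ganglionic eminence markers (5.49 to 6.53 caudal, 6.78 to 8.28 rostral) and of the diencephalic markers do not overlap between the regions, and rostral KO animal 15 stands apart in meningeal markers at 7.86.

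Between the caudal and the rostral cortex, guidance genes differed in both directions. Averaged over the genotypes, 10 of the 47 tested genes passed (21.3%), where 4.46% of all 11785 genes did, and 22 of 47 had an unadjusted p under 0.05 (46.8%, all genes 17.3%). The genes were listed with earlier results of these data known, so the higher share is a description and not a test of the set. Rostral cortex held more of the netrin ligand Ntn1, the netrin receptor Dcc, the Slit receptor Robo1, the ephrins Efna5 and Efna2, and the membrane-anchored semaphorin Sema7a. Caudal cortex held more of Flrt3, Flrt2, the netrin receptor Unc5a and the Eph receptor Epha7. The 4 higher genes were set against 1.26% of all genes and the 6 lower ones against 3.21%. The median size of the difference was 0.27 over the 47 genes and 0.11 over all genes, while the median signed difference was 0.01 and -0.02. The comparison asks which guidance genes have a rostrocaudal difference at this stage.

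**Figure D2:**
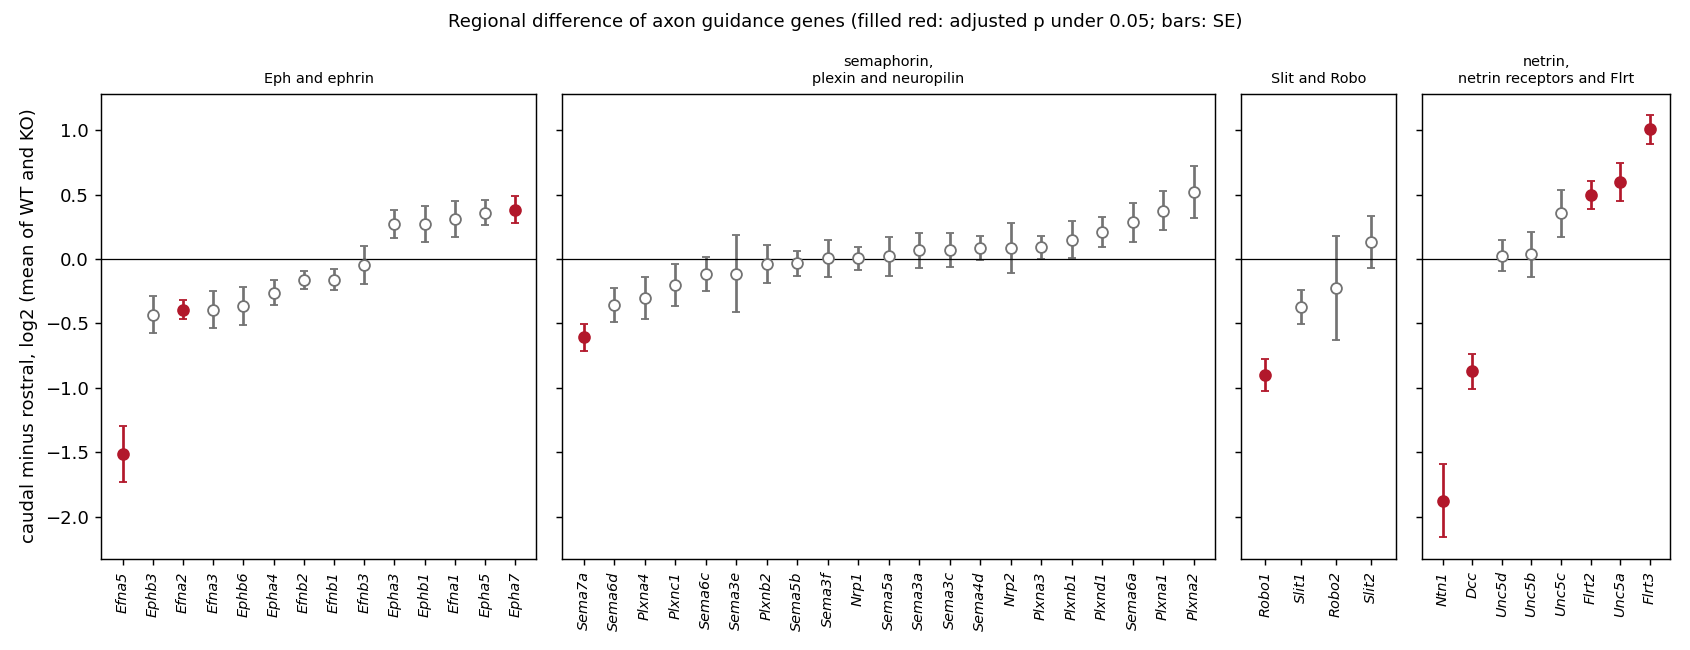
Caudal minus rostral log2 difference of the 47 tested guidance genes, averaged over genotypes, by family, with standard errors from limma. Genes past an adjusted p of 0.05 are marked; they run from Ntn1 at -1.87 to Flrt3 at 1.01.

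In the netrin family, 5 of 8 genes passed (all genes 4.46%). Ntn1, a secreted ligand, read 7.24, 6.75 and 7.00 in rostral WT and 6.57, 6.91 and 8.28 in rostral KO, against 4.91, 5.86 and 4.85 in caudal WT and 5.80, 4.95 and 5.14 in caudal KO. All 6 rostral arrays lay above all 6 caudal ones, and only 1 of 3 arrays in each caudal group exceeded 5.21, so the gene entered the test through its rostral arrays and its caudal level was not well measured. The fitted difference was -1.87 ± 0.29 (SE, 12 arrays; limma adjusted p = 0.0024), and with values below 5.21 raised to it, -1.71 (limma adjusted p = 0.0027). No fold is given against that caudal level.

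Dcc, the receptor through which netrin attracts axons, was bright on every array. It read 11.21, 10.82 and 11.08 in rostral WT, 10.95, 11.10 and 11.58 in rostral KO, 10.32, 9.89 and 10.34 in caudal WT, and 10.14, 10.10 and 10.72 in caudal KO. The ligand and this receptor were therefore both higher rostrally, with no caudal array of Dcc reaching a rostral one. The difference of Dcc was -0.87 ± 0.14 (SE, 12 arrays; limma adjusted p = 0.0028), 1.83-fold. Its 3 tested probe sets ran from -0.87 to -0.04, all lower caudally, but 1 of them passed when each was tested alone.

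Unc5a, a receptor of netrin repulsion, went the other way. It read 6.80, 6.80 and 7.05 in caudal WT, 7.12, 7.09 and 6.36 in caudal KO, 6.33, 6.26 and 6.57 in rostral WT, and 6.01, 6.11 and 6.36 in rostral KO. WT groups did not overlap, while caudal KO animal 13 matched the highest rostral KO array at 6.36. The difference was 0.60 ± 0.15 (SE, 12 arrays; limma adjusted p = 0.036), 1.51-fold. It passed in only 3 of the 12 fits that left out 1 array each, those without caudal KO 13, rostral KO 15 or rostral WT 16. Unc5b, Unc5c and Unc5d, the other members of that receptor family, differed by 0.04, 0.36 and 0.03 and did not pass.

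Flrt3 had the smallest p among the 47 genes. It read 9.48, 9.49 and 9.80 in caudal WT and 9.82, 9.86 and 9.85 in caudal KO, against 8.73, 8.78 and 8.61 in rostral WT and 9.09, 8.74 and 8.31 in rostral KO. The regions stayed apart in both genotypes. The difference was 1.01 ± 0.11 (SE, 12 arrays; limma adjusted p = 0.00031), 2.01-fold, and both of its probe sets passed.

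Flrt2, a second member of that family, had a smaller caudal excess. It read 9.29, 9.65 and 9.98 in caudal WT, 9.85, 10.02 and 10.21 in caudal KO, 9.39, 9.28 and 9.55 in rostral WT, and 9.34, 9.14 and 9.33 in rostral KO. KO groups were apart and WT groups overlapped, with a difference of 0.23 in WT and of 0.76 in KO. The averaged difference was 0.49 ± 0.11 (SE, 12 arrays; limma adjusted p = 0.018), 1.41-fold. All 3 of its probe sets were higher caudally, by 0.49 to 0.76, but they were not alike by genotype. Of the further probe sets, 1 differed by 0.61 in WT and 0.67 in KO, and another by 0.32 in WT and 1.19 in KO. The call was lost without rostral KO 8 (limma adjusted p = 0.056) or rostral WT 12 (0.052).

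**Figure D3:**
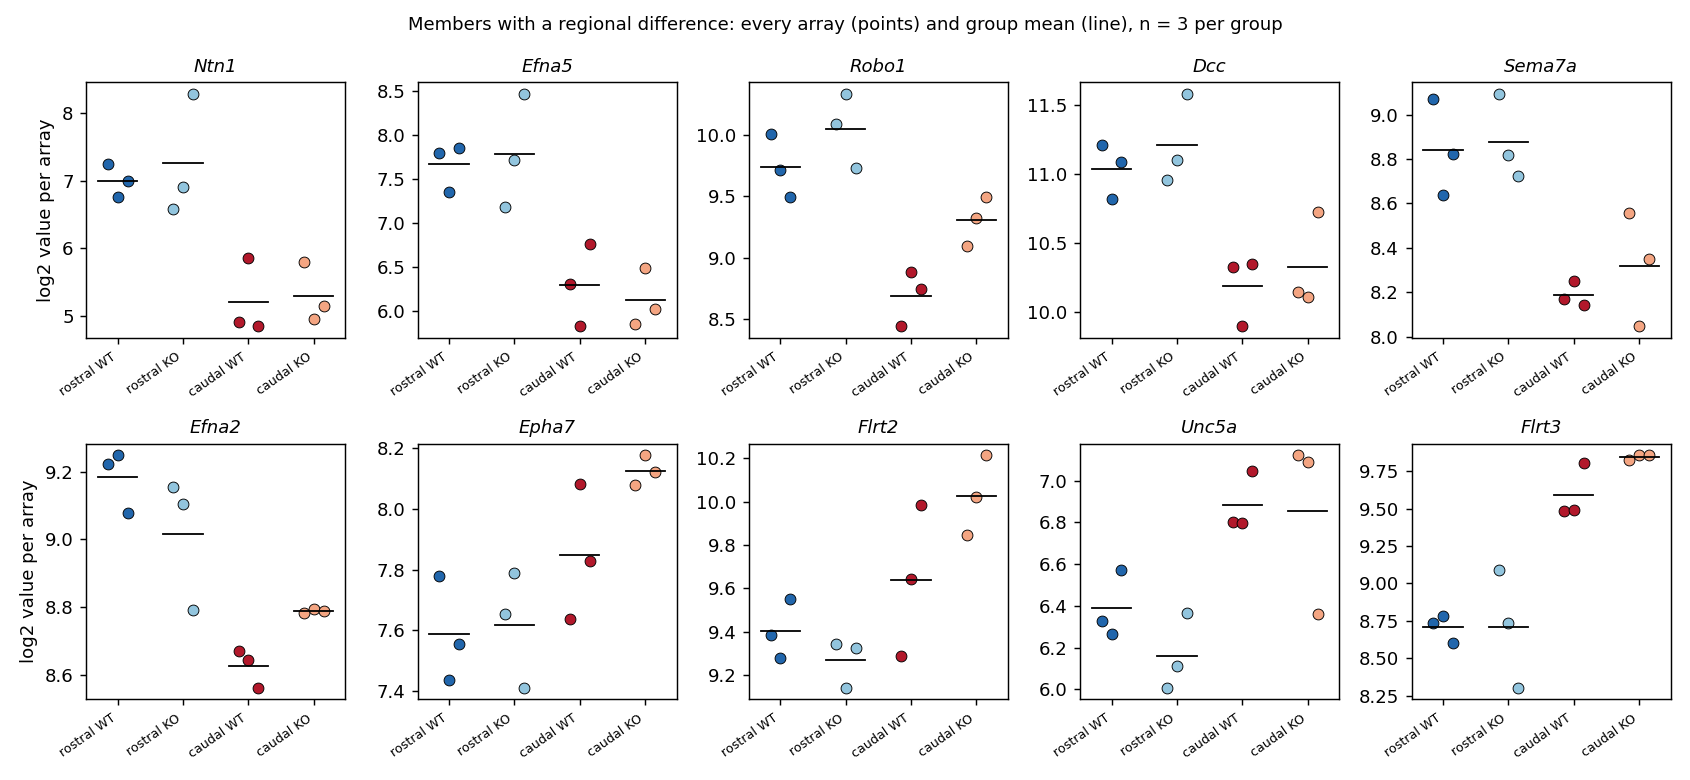
Log2 value of each of the 10 guidance genes with a regional difference on each of the 12 arrays, 1 panel per gene, with the mean of each group of 3 arrays. Ntn1, Efna5, Robo1, Dcc, Sema7a and Flrt3 keep caudal and rostral arrays apart in both genotypes, whereas Flrt2 overlaps in WT and Unc5a in KO.

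Among Eph receptors and ephrins, 3 of 14 tested genes passed (all genes 4.46%). Efna5, a membrane-anchored ephrin known for repelling axons in topographic mapping, read 7.80, 7.35 and 7.86 in rostral WT and 7.19, 7.72 and 8.47 in rostral KO. Caudally it read 6.31, 5.83 and 6.77 in WT and 5.86, 6.49 and 6.03 in KO, below every rostral array. The difference was -1.51 ± 0.22 (SE, 12 arrays; limma adjusted p = 0.0016), 2.86-fold lower caudally.

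Efna2, another ephrin of the A class, read 9.22, 9.25 and 9.08 in rostral WT and 8.67, 8.64 and 8.56 in caudal WT. In KO it read 9.15, 9.11 and 8.79 rostrally and 8.78, 8.80 and 8.79 caudally, so rostral KO animal 15 fell among the caudal arrays. The WT groups did not overlap. The difference was -0.39 ± 0.07 averaged over genotypes (SE, 12 arrays, limma adjusted p = 0.0088), with -0.56 in WT and -0.23 in KO. A second probe set of Efna2 was at -0.34 and did not pass when tested alone (limma adjusted p = 0.26), with -0.67 in WT and -0.01 in KO.

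The receptor Epha7 was higher caudally, at 7.64, 8.08 and 7.83 in WT and 8.08, 8.18 and 8.12 in KO, against 7.78, 7.43 and 7.55 rostrally in WT and 7.65, 7.79 and 7.41 in KO. KO groups did not overlap and WT groups did. The difference, 0.38 ± 0.10 (SE, 12 arrays), lay at the threshold (limma adjusted p = 0.04999), and it passed in only 2 of the 12 fits that left out 1 array each, those without caudal WT 4 or rostral WT 10. All 4 of its probe sets were higher caudally, by 0.25 to 0.41, and none passed when tested alone. Epha5, a related receptor, was higher caudally by 0.36 without passing (limma adjusted p = 0.058), and Ephb3 was lower by 0.43 with groups apart in both genotypes (limma adjusted p = 0.12). The other 9 tested Eph and ephrin genes lay between -0.39 and 0.31.

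In the Slit and Robo family, Robo1 alone of 4 tested genes passed (all genes 4.46%). This Slit receptor read 10.01, 9.71 and 9.50 in rostral WT and 10.09, 10.34 and 9.73 in rostral KO, against 8.44, 8.88 and 8.75 in caudal WT and 9.09, 9.33 and 9.50 in caudal KO. Caudal and rostral arrays were apart within each genotype. The difference was -0.90 ± 0.12 (SE, 12 arrays; limma adjusted p = 0.0012), 1.87-fold lower caudally. A second probe set of Robo1 was at -0.46 and did not pass when tested alone (limma adjusted p = 0.32). The ligand Slit1 was lower caudally by 0.37 without passing (limma adjusted p = 0.15). Slit2 and the receptor Robo2 differed by 0.13 and -0.22, the latter with an SE of 0.40.

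Of 21 semaphorins, plexins and neuropilins, Sema7a alone passed, a share near that of all genes (4.46%). This semaphorin, which is anchored to the membrane and also signals through integrins, read 9.07, 8.64 and 8.82 in rostral WT and 9.09, 8.82 and 8.72 in rostral KO. It read 8.17, 8.25 and 8.14 in caudal WT and 8.56, 8.05 and 8.35 in caudal KO, below every rostral array. The difference was -0.61 ± 0.11 (SE, 12 arrays; limma adjusted p = 0.0050), 1.52-fold. The other 20 ran from -0.36 for Sema6d to 0.52 for the receptor Plxna2, whose 4 probe sets were all higher caudally (limma adjusted p = 0.20). The neuropilins Nrp1 and Nrp2, co-receptors of secreted semaphorins, differed by 0.01 and 0.09.

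Taken in each genotype alone, with 3 arrays against 3, fewer guidance genes passed. In WT these were Robo1, Flrt3 and Efna2, 3 of 47 (6.38%), beside 0.942% of all genes. In KO they were Flrt3, Efna5, Flrt2, Ntn1 and Dcc, 5 of 47 (10.6%), beside 0.950%. Caudal and rostral arrays did not overlap for 17 guidance genes in WT (36.2%, all genes 13.9%) and for 15 in KO (31.9%, all genes 20.9%). They did so in both genotypes in the same direction for 7 (14.9%, all genes 4.79%), which were Dcc, Efna5, Ephb3, Flrt3, Ntn1, Robo1 and Sema7a. With animals 13 to 16 as a block, or neighbouring animal numbers as a random block, 8 genes passed in WT and 8 in KO. Without WT animals 6 and 12, whose arrays were high in Xist, 0 passed in WT in limma, with 11 at an unadjusted p under 0.05, and 2 passed in KO. The counts in single genotypes also changed with 1 array. In WT the count was 0 without rostral WT 10 (11 at an unadjusted p under 0.05), 1 without caudal WT 14, rostral WT 12 or rostral WT 16, and 6 without rostral KO 15. In KO it was 1 without caudal KO 1, rostral KO 8 or rostral KO 15, 2 without caudal KO 2 or rostral WT 10, and 3 without caudal KO 13, rostral WT 12 or rostral WT 16. For the fits with 11 genes at an unadjusted p under 0.05, the share of all genes is not given here.

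The ganglionic eminence markers described above were highest on the array of rostral KO animal 15, and the guidance genes were not alike there. Ntn1, Efna5 and Dcc had their highest reading on that array, at 8.28, 8.47 and 11.58. Robo1, Sema7a and Efna2, also higher rostrally, had there the lowest of their 3 rostral KO readings, at 9.73, 8.72 and 8.79. Without that array the differences of Ntn1, Efna5 and Dcc were -1.62, -1.34 and -0.78, and all 3 still passed. The mean of these markers was then added to the fit, a choice made after seeing the data. No guidance gene then passed for the averaged difference in limma, and 15 of all genes did. An unadjusted p under 0.05 was reached by 13 of 47, and the share of all genes at that threshold is not given here. All 10 genes kept their direction, with limma adjusted p from 0.10 to 0.39; Ntn1 was then at -1.04, Efna5 at -0.84, Dcc at -0.43, Robo1 at -0.83, Sema7a at -0.73, Efna2 at -0.57, Flrt3 at 0.69, Flrt2 at 0.74, Unc5a at 0.58 and Epha7 at 0.42. The differences of Sema7a, Efna2, Flrt2 and Epha7 were then larger in size than without the markers, and those of the other 6 smaller. The marker level did not overlap between the regions, so marker level and region cannot be told apart in that fit.

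Animals 13 to 16 have the highest numbers, and each group held 1 of them. The sample titles name no batch, so the split at animal 13 was an assumption. The 10 differences had the same direction within animals 1 to 12 as within animals 13 to 16. The 10 genes were picked over these same 12 arrays, so the shared direction is not separate support. Robo1 was at -1.10 and -0.49, Ntn1 at -1.49 and -2.65, Efna5 at -1.39 and -1.76, and Flrt3 at 0.83 and 1.37. Values within animals 13 to 16 rest on 1 array per group.

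Among 62 tested genes of 70 listed as co-receptors, further ligands and signalling partners of the same pathways, 5 passed for the averaged regional difference (8.06%, all genes 4.46%). Neo1, a netrin and repulsive guidance molecule receptor related to Dcc, was higher caudally by 0.73 (limma adjusted p = 0.0012), the direction opposite to that of Dcc. Ntn4, a further netrin, was lower caudally by 1.08 on the log2 scale (limma adjusted p = 0.010), as Ntn1 was. Dpysl4, of the family of semaphorin signal mediators, and Cntn2, an axonal adhesion molecule, were higher by 0.65 and 0.58, and Chn2, a Rac GTPase-activating protein, was lower by 0.65 on the log2 scale. The call of Cntn2 lay at the threshold (limma adjusted p = 0.0495), with a difference of 0.34 in WT and 0.83 in KO.

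No guidance gene passed the test between KO and WT. Averaged over regions, 0 of 47 passed in limma, and 3 of 47 had an unadjusted p under 0.05 (6.38%, all genes 7.53%). Of all 11785 genes, 4 passed (0.0339%). In caudal and in rostral cortex alone, none of the 47 passed and none of all genes did (0%). An unadjusted p under 0.05 was reached by 6 of the 47 caudally (12.8%, all genes 4.06%) and by 1 rostrally (2.13%, all genes 6.69%). Differences averaged over regions ran from -0.31 to 0.46, with a median of 0.01 and a median size of 0.13 beside 0.089 for all genes. The comparison asks whether the factor affects these genes in either region.

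**Figure D4:**
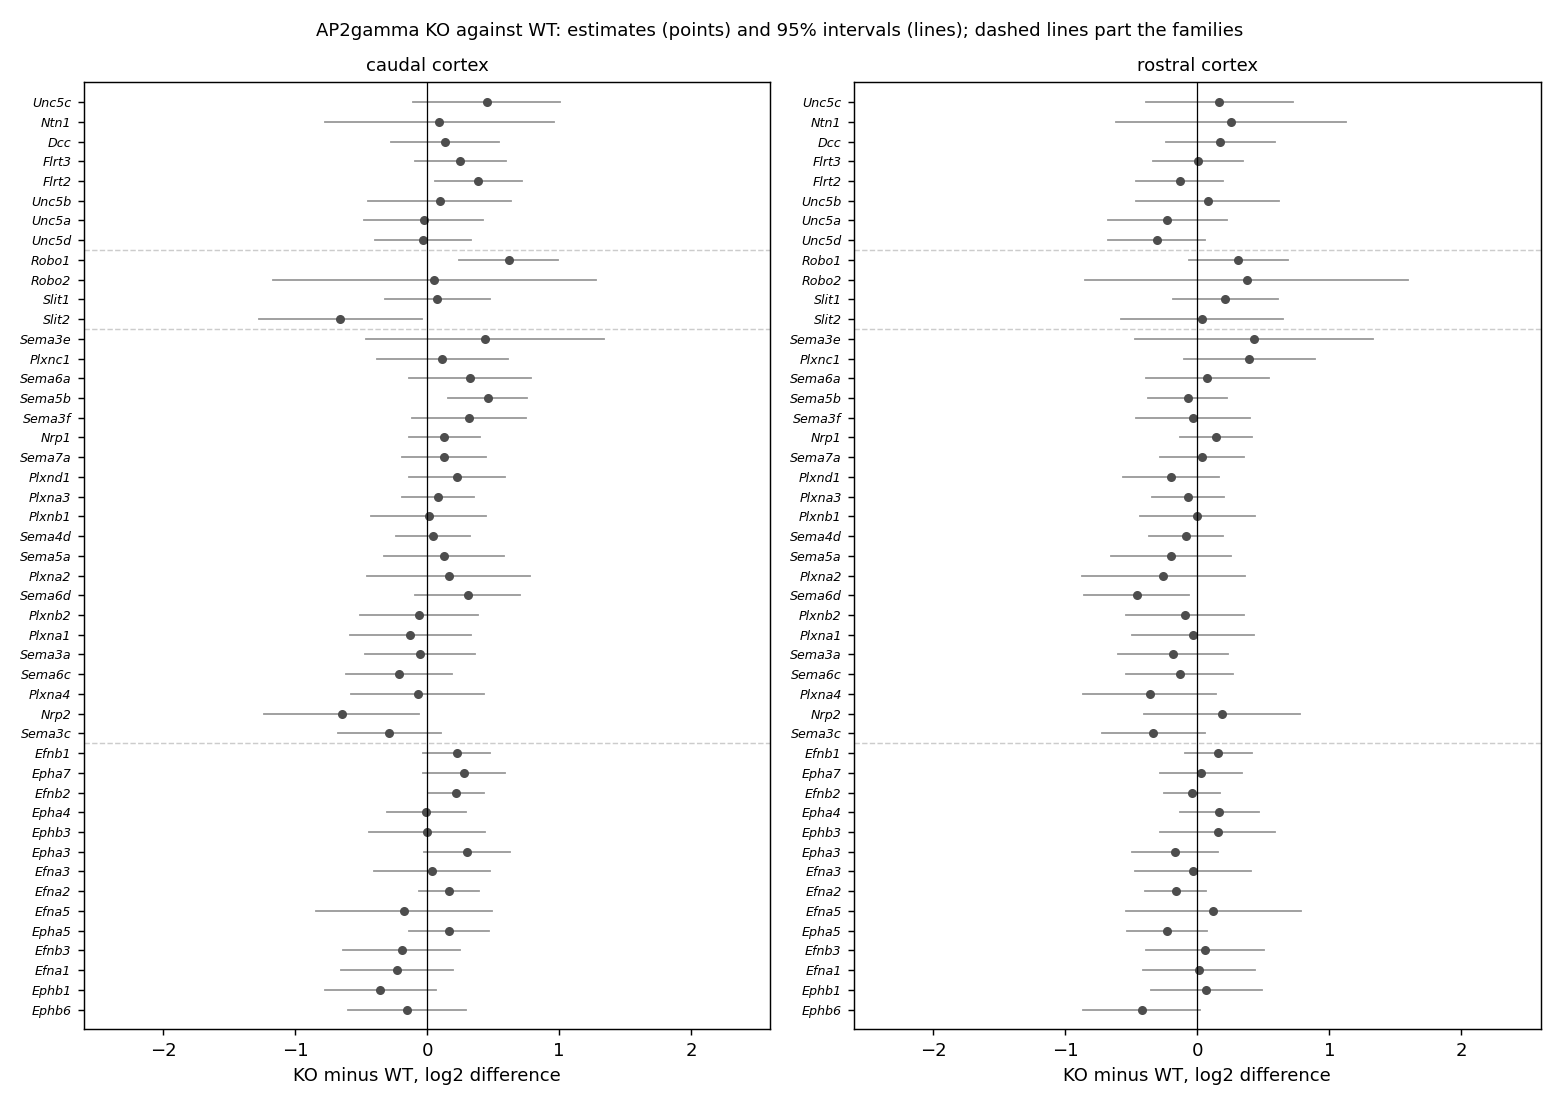
KO minus WT log2 difference of the 47 tested guidance genes in caudal and in rostral cortex, 3 arrays per group, as points with 95% intervals, 1 point per gene and region, ordered by family. No gene passed in either region, and Robo1 lies highest caudally at 0.62, with Slit2 and Nrp2 lowest caudally at -0.66 and -0.65.

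Robo1 had the largest averaged difference between the genotypes. Its values, given above, put all 3 caudal KO arrays above all 3 caudal WT arrays, while the rostral groups overlapped. The difference was 0.62 in caudal cortex and 0.46 ± 0.12 averaged over regions (SE, 12 arrays), with a limma adjusted p of 0.91 and 0.37. Within animals 1 to 12 the averaged difference was 0.45 and within animals 13 to 16 it was 0.49, on the same arrays that gave the value above. A second probe set of Robo1 gave 0.20 averaged over regions.

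Slit2, a secreted ligand of the Robo receptors, had low caudal KO values. It read 8.19, 7.91 and 7.28 in caudal KO and 8.78, 8.21 and 8.37 in caudal WT, without overlap. Rostrally it read 7.34, 8.05 and 8.64 in KO and 8.05, 7.87 and 8.01 in WT, with overlap. The averaged difference of -0.31 ± 0.20 (SE, 12 arrays) did not pass (limma adjusted p = 0.79). A second tested probe set of Slit2 did not show this, at 0.01 in caudal cortex and 0.11 averaged over regions. That probe set exceeded the median of all deposited values on only 3 of the 12 arrays, so its level was not well measured.

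Nrp2, a co-receptor of secreted semaphorins, had a like pattern. It read 8.73, 8.16 and 7.97 in caudal KO against 8.94, 8.91 and 8.95 in caudal WT, a difference of -0.65. Rostrally it read 8.01, 8.53 and 9.31 in KO against 8.26, 8.24 and 8.78 in WT, with the highest value again in animal 15. Its averaged difference was -0.23 (limma adjusted p = 0.83).

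Sema3c, a secreted semaphorin, read 8.70, 8.43 and 9.02 in caudal KO, 8.79, 9.22 and 9.00 in caudal WT, 8.66, 8.37 and 8.83 in rostral KO, and 9.24, 8.69 and 8.95 in rostral WT. Groups overlapped in both regions. Its averaged difference, -0.31 ± 0.13 (SE, 12 arrays), did not pass (limma adjusted p = 0.62). Sema5b, a transmembrane semaphorin, was higher in KO caudally by 0.46, where its arrays read 7.35, 7.33 and 7.38 in KO and 6.98, 6.70 and 6.99 in WT, but not rostrally, where the groups overlapped. Efnb1, a transmembrane ephrin, was higher in KO by 0.19 ± 0.08 averaged over regions (SE, 12 arrays; limma adjusted p = 0.63). Further tested probe sets of Efnb1 did not show this, at -0.06 and 0.01 averaged over regions.

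Other genes with the smallest p in their family were Ephb6, at -0.29 averaged over regions, Epha7 at 0.15, Plxnc1 at 0.26, Slit1 at 0.15, Unc5c at 0.31, Unc5d at -0.17 and Flrt2 at 0.13, and none passed. Caudally, all KO arrays lay on one side of all WT arrays for 8 guidance genes (17.0%, all genes 7.52%), which were Efna1, Efna2, Efnb1, Flrt3, Nrp2, Robo1, Sema5b and Slit2. In rostral cortex the same held for 4 (8.51%, all genes 13.0%), Epha5, Plxna4, Sema5a and Sema6d, all lower in KO (all genes lower without overlap 7.50%). No guidance gene was apart in both regions in the same direction (all genes 1.18%). Of the 62 further pathway genes, none passed for any comparison of KO with WT. Averaged over regions, all 5 tested markers of the cortical hem and choroid plexus were lower in KO in value, with a median of -0.60. Rostrally, however, Folr1 and Clic6 had higher means in KO, at 4.94 and 6.00 against 4.37 and 5.47 in WT. Among the 5, the SD within a group reached 2.43, for Wnt3a in caudal KO. Also averaged over regions, 7 of 9 ganglionic eminence markers were higher in KO, with a median of 0.15, and 7 of 9 vascular markers, with a median of 0.18. None of these markers passed. Of the 7 cortical markers, Eomes, which marks basal progenitors, passed, and was lower in KO by 0.58 caudally, by 0.55 rostrally and by 0.56 averaged over regions on the log2 scale (limma adjusted p = 0.038). The part of these markers in the KO values was not tested.

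Whether the KO effect was unequal in the 2 regions was tested as an interaction, the caudal effect less the rostral one. None of the 47 passed in limma and none of all genes did (0%), with 6 of the 47 at an unadjusted p under 0.05 (12.8%, all genes 3.04%). Sema6d, a transmembrane semaphorin, had the smallest p. It read 10.83, 10.75 and 11.28 in caudal KO against 10.23, 10.82 and 10.89 in caudal WT, while rostral KO read 11.00, 10.72 and 11.06 and rostral WT read 11.10, 11.49 and 11.58. The groups overlapped caudally and were apart rostrally, where KO was lower. The interaction was 0.77 ± 0.26 (SE, 12 arrays; limma adjusted p = 0.9994). Nrp2, at -0.83, Sema5b, at 0.53, Flrt2, at 0.52, Epha3, at 0.47, and Efna2, at 0.33, were the other 5, none past the test. Further probe sets of Flrt2 gave interactions of 0.06 and 0.87.

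The size of effect that the arrays could still hold was taken from 95% intervals of single genes, not adjusted for their number. Averaged over regions, the interval of the KO effect had a median half-width of 0.30 over the 47 genes. It lay wholly within 0.5 of no change for 35 genes and within 1 for 45. The widest bounds were -0.74 for Slit2 and 1.08 for Robo2. A miss of the threshold therefore does not show that these genes were equal in KO and WT.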

How the data were processed

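Gene expression was measured on 12 1-colour arrays, 3 for each of 4 groups. The values were used as deposited: the authors gave 1 log2 value for each of 45101 probe sets, with nearly equal medians on all arrays. The methods of background correction, normalisation and summarisation are not given in the sources used here. The number of arrays limits the precision. Probe sets were named through the platform annotation, in which 34958 named 1 gene, 932 named several and were left out, and 9211 had no name here.

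Of several tested probe sets, the one with the highest mean stood for the gene. The limma package (version 3.58.1, R 4.3.3) fitted 1 mean per group over all 12 arrays with an intensity trend, and p-values were adjusted by Benjamini-Hochberg over 11785 genes, with a threshold of 0.05. The fit was tested on simulated data: for the averaged regional difference, 44.0% of genes changed by 0.5 and 86.0% of those changed by 1 were recovered.

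The guidance genes and the lists of pathway and marker genes were chosen with earlier results of these data known. Values on every array were given by rule for guidance genes past the test in any comparison; the 3 genes of smallest p per family were named for the averaged KO effect, and pathway genes where they passed. Array values of Slit2, Nrp2, Sema3c, Sema5b and Sema6d were added after their values were seen. Alternatives covered scaling, filters, probe set choice, moderation, weights, blocks, sex and left-out arrays.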

Additional observations from a re-analysis of the deposited data

How the results depend on the processing

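For the averaged regional difference, 7 to 10 guidance genes passed when 1 array was left out, and 7 to 14 under the other alternatives, apart from 0 with the ganglionic eminence markers as a covariate. Dcc, Efna2, Efna5, Flrt3, Ntn1, Robo1 and Sema7a passed in every alternative run for them except that covariate; the calls of Flrt2, Unc5a and Epha7 were lost under 5, 12 and 19 alternatives. Leaving out 1 array gave 0 to 6 genes for the regional difference in WT and 1 to 5 in KO. In WT, where 3 passed, the count was 8 with animals 13 to 16 as a block. It was also 8 with the assumed pairs of caudal and rostral arrays as a random block (correlation 0.26). Without animals 6 and 12, or with the covariate, the count was 0. In KO, where 5 passed, it was 3 with no filter, 3 with a stricter filter, 1 with no intensity trend, 10 with array weights, 8 with either block, 2 without animals 6 and 12, 2 with only the groups compared, 2 with every probe set as its own feature, and 0 with the covariate. The cause was not tested. No direction of a called gene reversed, and no guidance gene passed for any KO effect or for the interaction under any alternative. The groups share no animal number in the labels, and the main fit treated the 12 arrays as independent. Whether a caudal and a rostral array came from 1 embryo or litter is not given in the sources used here. Pairing was tried only through the random block of assumed pairs. The arrays of WT animals 6 and 12, both high in Xist, form 1 of these pairs.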

Other observations

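Sema3b, a secreted semaphorin among the further pathway genes, had the most negative averaged KO difference of that list, -2.33 ± 0.52 on the log2 scale (SE, 12 arrays; limma adjusted p = 0.21). It read 1.30, 4.10 and 3.88 in caudal KO against 5.18, 4.69 and 5.40 in caudal WT, while rostral KO read 2.02, 3.21 and 4.00 and rostral WT read 5.49, 5.76 and 5.99. KO arrays lay below WT arrays in both regions (all genes without overlap in both regions in the same direction 1.18%). All 6 KO values were under 5.21, the median of the deposited values, as were 5.18 and 4.69 in caudal WT. The gene entered the test only through WT arrays, so the size of the difference cannot be read from its values. Rgmb, a repulsive guidance molecule that binds Neo1, was higher in KO without overlap in both regions, by 0.33 ± 0.11 on average (SE, 12 arrays; limma adjusted p = 0.46). Both genes were chosen after their values were seen, and neither passed the test.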
